A study of Mus musculus with 16 samples.

Results

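The immediate-early response genes Fos, Fosb, Jun, Junb, Egr1, Atf3, Ier2, Dusp1, Nr4a1 and Zfp36 were followed across the lungs and livers of newborn mice from Man1a2 litters. The 10 genes were named by symbol, with earlier results of these data known, and make up 10 of the 25054 rows of the count table. Man1a2 encodes a Golgi mannosidase that trims N-linked glycans. C57BL/6J parents, all heterozygous for the null allele, drank N-acetyl cysteine (NAC, a cysteine donor for glutathione) at 1 g/kg or water as placebo from before mating until birth. RNA came from 4 pup groups: live wild-type (live WT), live heterozygous (live Het), dead heterozygous (dead Het) and dead null (dead Null). Each group, treatment and tissue label had a single library of RNA pooled from 3 experiments, or from 2 for dead Het pups, which made 16 libraries. Dead pups were collected as they were found, at checks every 8 h, and live pups were killed at the end of the 24 h of observation, so outcome, age and time to harvest cannot be told apart. Genotype is likewise tied to outcome, since WT pups are only in the live groups and Null pups only in the dead groups.

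Immediate-early genes are transcribed within minutes of a stimulus without new protein synthesis. Signals through mitogen-activated protein kinases, calcium and cyclic AMP act on factors already bound at their promoters, mainly serum response factor with its ternary complex partners, and CREB. The products are transcription factors that carry the response to later genes, together with inhibitors that switch the signal off, and both the RNAs and the proteins are short-lived.

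The tissue labels did not separate lung from liver RNA, so libraries were grouped by content. A library was called lung-content with at least 1000 counts per 1000000 counts (CPM) of Sftpc, the surfactant protein C gene of alveolar type II cells, and under 1000 CPM of Alb. It was called liver-content with at least 50000 CPM of Alb, the albumin gene of hepatocytes. This gave 7 lung-content libraries (4 live, 3 dead), of which 4 were labelled liver, 8 liver-content libraries (4 live, 4 dead), of which 4 were labelled lung, and 1 mixed library. The mixed library, labelled dead Null placebo lung, held 5553 CPM of Sftpc and 9280 CPM of Alb and was in no main test. In the lung-content libraries Sftpc ranged from 4446 to 11758 CPM and Alb from 10.5 to 135 CPM, and in the liver-content libraries Alb ranged from 51003 to 101254 CPM and Sftpc from 0.062 to 3.10 CPM. Totals were 7236865 to 11808823 counts in lung-content and 14115802 to 16107749 in liver-content libraries. The ribosomal entry Rn45s took 4.05 to 26.2% of the counts in lung-content and 0.845 to 6.29% in liver-content libraries. Neither Sftpc nor Alb is among the 10 genes, so the grouping did not use them. A pair of NAC and placebo libraries of the same pup group and content existed for live WT, live Het and dead Het pups in each class, and in all 6 pairs the libraries carried different tissue labels. In lung-content, the live WT and live Het NAC libraries were labelled lung and their placebo libraries liver, and for dead Het pups it was the reverse. In liver-content each of these was mirrored. The treatment and pup group labels were taken as given. The files do not show whether the tissue, the treatment or the pup group was exchanged where label and content disagree, and every NAC and placebo value and every dead and live value below depends on those labels.

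The promoters are shown because these genes share upstream control elements. RefSeq (GRCm38.p6) gave the start of 8 of the 10 genes, all but Egr1 and Ier2, and the 250 bases before the start were searched on both strands. The core of the CREB and ATF element, TGACG, was found in 6 of 8 windows (Fos, Fosb, Junb, Atf3, Dusp1 and Nr4a1), against 17.8% of 32851 windows of the same length over all genes. The full element TGACGTCA, which contains TGACG, was in that of Dusp1, against 1.55% of windows. The serum response element core (the CArG box) was in that of Zfp36, against 1.47%. The AP-1 element TGAGTCA was in none of the 8, against 4.46%, and the EGR element GCGTGGGCG was in none, against 0.536%. A TATAAA was found for Fos (12.4% of windows) and a CCAAT for Jun and Junb (33.9%). These are matches of letters, not tested sites. Sequence farther than 250 bases upstream was not searched, so a missing match does not mean that a gene lacks the element. Below are 4 of the windows, that of Fos with its pair of TGACG cores, that of Nr4a1 with 4, that of Dusp1 with the full element and that of Zfp36 with the CArG box, written 5′ to 3′ on the gene's strand, with TGACG, TGACGTCA or the CArG box in capitals (CGTCA is TGACG on the other strand).

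Fos (chr12:85473640-85473889, GRCm38.p6, plus strand): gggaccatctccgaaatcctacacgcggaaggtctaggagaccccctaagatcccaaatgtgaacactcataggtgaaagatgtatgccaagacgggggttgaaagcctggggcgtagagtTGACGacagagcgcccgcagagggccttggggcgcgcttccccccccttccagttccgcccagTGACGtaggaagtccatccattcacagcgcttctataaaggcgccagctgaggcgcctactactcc
Nr4a1 (chr15:101266596-101266845, GRCm38.p6, plus strand): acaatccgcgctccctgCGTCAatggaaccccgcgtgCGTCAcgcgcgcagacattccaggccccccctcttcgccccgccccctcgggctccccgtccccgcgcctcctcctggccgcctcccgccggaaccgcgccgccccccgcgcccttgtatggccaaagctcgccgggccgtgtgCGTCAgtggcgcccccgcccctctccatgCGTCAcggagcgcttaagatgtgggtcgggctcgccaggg
Dusp1 (chr17:26508473-26508722, GRCm38.p6, minus strand): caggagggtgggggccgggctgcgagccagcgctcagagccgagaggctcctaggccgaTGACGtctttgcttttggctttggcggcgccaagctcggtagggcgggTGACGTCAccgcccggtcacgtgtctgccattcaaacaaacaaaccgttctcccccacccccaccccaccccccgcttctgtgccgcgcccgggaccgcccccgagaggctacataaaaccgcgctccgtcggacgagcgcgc
Zfp36 (chr7:28379229-28379478, GRCm38.p6, minus strand): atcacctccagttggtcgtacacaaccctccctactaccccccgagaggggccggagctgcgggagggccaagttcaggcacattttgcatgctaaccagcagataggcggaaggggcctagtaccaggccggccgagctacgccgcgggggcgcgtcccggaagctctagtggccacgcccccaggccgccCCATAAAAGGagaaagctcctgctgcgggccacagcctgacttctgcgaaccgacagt

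Between the lung-content libraries of NAC and placebo pups, most of the set differed. With NAC, 8 of the 10 genes were higher and 0 were lower, where 14.5% of the 14012 genes tested were higher, 11.3% lower and 25.8% called in either direction (edgeR quasi-likelihood test blocked on pup group, Benjamini-Hochberg adjusted p under 0.05). The median log2 fold change (log2FC) of the 10 was 1.94 and that of all genes -0.03. The 10 genes were chosen with earlier results of these data known, so these shares are not an independent test. The 8 were Fos, Fosb, Jun, Junb, Atf3, Dusp1, Nr4a1 and Zfp36, and Egr1 and Ier2 did not pass. Beside this, cell markers also differed: 5 of 7 neutrophil, 4 of 9 hepatocyte, 4 of 10 erythroid and 3 of 8 endothelial marker rows were higher with NAC, 2 of 8 fibroblast and smooth muscle rows were higher and 2 lower, 1 each of the lung epithelium, macrophage and lymphocyte rows was lower, and 0 of 7 cardiac and skeletal muscle rows passed. Summed neutrophil markers were at 245 to 332 CPM in the 3 NAC and 144 to 193 CPM in the 4 placebo libraries, and summed hepatocyte markers at 66.6 to 190 and 31.8 to 249 CPM. The part of these cells in the result was not tested, and fewer cells of a type cannot be told apart from less RNA per cell in bulk tissue.

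Fos and Fosb, which pair with Jun proteins to form the transcription factor AP-1, had the largest differences of the 10. Fos (chr12:85473890-85477273, GRCm38) had 770 CPM in the live WT NAC library and 36.3 in its placebo partner, 113 and 19.7 in live Het, and 105 and 29.2 in dead Het. The NAC library was above its placebo partner in all 3 pairs, and the dead Null placebo library, which had no NAC partner of lung content, stood at 91.0 CPM, below the 3 NAC libraries but above the other 3 placebo libraries. The log2FC of Fos was 3.22 (SE 0.46, adjusted p = 0.00262), a fold of 9.33, and the paired differences of log2(CPM + 1) after TMM scaling averaged 3.16 ± 1.43 (SD, n = 3 pairs). Fosb (chr7:19302696-19310051) had 52.4 against 2.12 CPM in live WT, 2.76 against 1.5 in live Het and 8.34 against 0.913 in dead Het. The order of the pairs was not that of Fos, and the live Het pair was close. Its log2FC was 3.59 (SE 0.59, adjusted p = 0.00446).

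The Jun partners differed by less. Jun (chr4:95049034-95052222) had 1454 against 303 CPM in live WT, 339 against 191 in live Het and 347 against 199 in dead Het, with 247 in the unpaired dead Null placebo library. Junb (chr8:84974484-84978718), a weaker activator that can oppose Jun, had 225 against 70.9, 86.9 against 50.9 and 104 against 52.2 CPM in the same order. For both genes the NAC library was the higher in all 3 pairs, and the live WT placebo library was not far from the NAC libraries of the Het groups. The log2FC was 1.58 for Jun (SE 0.29, adjusted p = 0.00666) and 1.44 for Junb (SE 0.20, adjusted p = 0.00244). Atf3 (chr1:191170296-191218039), a stress-induced bZIP repressor, had 56 against 11.9 CPM in live WT, 47.1 against 8.2 in live Het and 28.3 against 9.13 in dead Het. The lowest NAC library was thus above every placebo library, the unpaired one at 20.2 CPM included. Its log2FC was 2.43 (SE 0.25, adjusted p = 0.000677).

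Nr4a1, Zfp36 and Dusp1 had standard errors of 0.21 or less, as had Junb and Ier2. Nr4a1 (chr15:101254269-101274795), an orphan nuclear receptor induced by cyclic AMP and calcium, had 110 against 37.2 CPM in live WT, 63.4 against 18.2 in live Het and 200 against 27.7 in dead Het. It was the only one of the 10 genes with its highest lung-content value outside the live WT NAC library. The log2FC was 2.36 (SE 0.21, adjusted p = 0.000406). Zfp36 (chr7:28376784-28380253), which binds AU-rich elements and hastens the decay of early-gene and cytokine mRNAs, had 498 against 118, 216 against 54.0 and 218 against 67.9 CPM. Dusp1 (chr17:26505590-26562128), a phosphatase that inactivates mitogen-activated protein kinases, had 538 against 167, 281 against 118 and 394 against 174 CPM. Both inhibitors were higher with NAC in each pair, with a log2FC of 2.21 (SE 0.18, adjusted p = 0.000270) for Zfp36 and 1.66 (SE 0.17, adjusted p = 0.000733) for Dusp1.

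Egr1 and Ier2 stood apart from the other 8. Egr1 (chr18:34859823-34864984), a zinc finger activator downstream of serum response factor, had 202 against 48.9 CPM in live WT, but 12.2 against 30.6 in live Het and 21.3 against 27.7 in dead Het. Its pairs went in opposite directions, and the unpaired dead Null placebo library held 130 CPM. The log2FC was 0.46 (SE 0.54, adjusted p = 0.551), and -0.58 without the live WT pair (adjusted p = 0.152). Ier2 (chr8:84661331-84662852), a small nuclear early-response protein, had 144 against 87.6, 68.1 against 71.4 and 79.9 against 79.2 CPM. Only its live WT pair was far apart, and its log2FC was 0.51 (SE 0.19, adjusted p = 0.0814).

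The call held for the same number of genes, 8, with relative log expression factors, with library size alone, in DESeq2, without the block and without the live WT or the live Het pair, and 9 passed without dead Het. Library size alone shifted the median of all genes by -0.32 and turned the split of all calls to 816 higher and 2846 lower. When all 7 lung-content libraries were fitted with outcome as a covariate in place of the block, an alternative chosen after seeing the data that adds the dead Null placebo library, 4 of the 10 passed. Fos, Fosb, Jun and Junb then had adjusted p of 0.0611, 0.0512, 0.0523 and 0.0571, with Fos at a log2FC of 3.11.

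**Figure D1:**
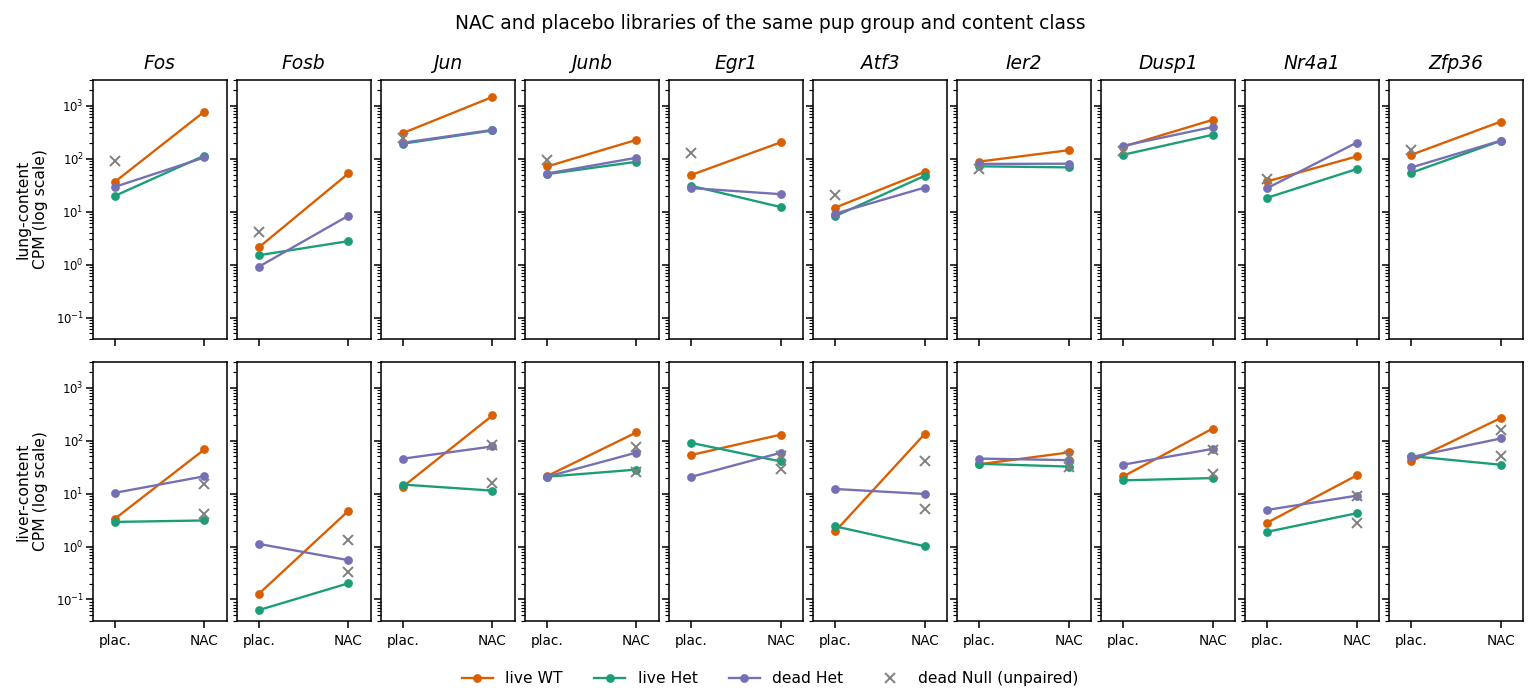
CPM of each gene (log scale, same axis in every panel) in placebo and NAC libraries, lung-content in the top row and liver-content in the bottom row. Lines join the libraries of 1 pup group and crosses are dead Null libraries with no partner. In lung-content 8 genes were higher with NAC in all 3 pairs, while in liver-content the live WT line climbs the most for all but Egr1.

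Other early-response genes, in lists that were drawn up with earlier results of these data known, were counted in the same lung-content fit. Of other AP-1 and bZIP factors, 6 of 9 tested were higher and 1 lower, and the values were 2.73 for Fosl2, 1.82 for Maff and 1.29 for Jund, with Batf at -1.01. Of other immediate-early regulators 13 of 24 were higher and 0 lower, among them the circadian repressor Per1 (3.03), Csrnp1 (2.62) and Cebpd (2.38), a bZIP factor of the acute phase and of glucocorticoid responses. Of feedback inhibitors 12 of 27 were higher and 0 lower, with the kinase Sik1, which restrains CREB coactivators, at 2.45, Gadd45g at 2.31 and the EGF receptor inhibitor Errfi1 at 2.16. Of secreted and effector early genes 10 of 19 were higher and 0 lower, with the cell cycle inhibitor Cdkn1a at 3.09, Cyr61 at 1.74 and Thbs1 at 1.71. The kinases and factors upstream were near the background, with 3 of 21 higher (Elk4 0.83, Crtc2 0.64, Rela 0.53) and 2 lower (Elk3 -0.56, Creb1 -0.50). The medians were 0.91, 0.84, 0.61, 0.72 and 0.18 in the order given, all log2FC, beside -0.03 for all genes.

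**Figure D2:**
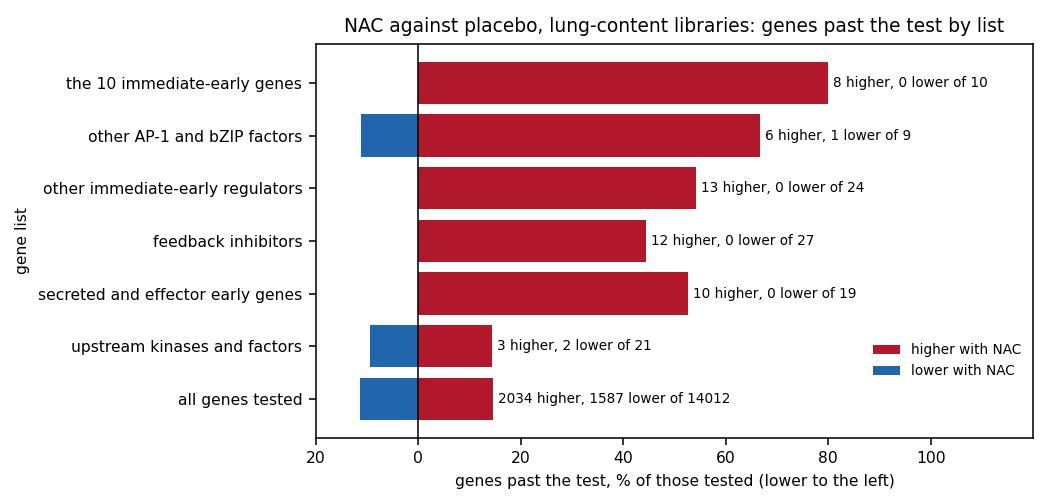
Share of each gene list that passed the test between NAC and placebo in lung-content libraries, in % of the genes tested, higher to the right in red and lower to the left in blue. The 10 genes (8 higher) stand above the other early-gene lists, and the upstream factors are close to all genes.

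Both live WT NAC libraries stood apart. Among the lung-content libraries the live WT NAC library was the highest for 9 of the 10 genes, where it was the highest for 13.5% of all genes averaging 1 CPM or more, and among the liver-content libraries for 10 of 10, against 9.65%. Fosb averaged 0.535 CPM in the other 7 liver-content libraries and met that minimum there only through the live WT NAC library, so its place was set by the filter. After TMM scaling the counts were 8 of 10 (12.3% of genes) and 10 of 10 (13.4%). In lung-content its Fos of 770 CPM was 6.79 times the next library and its Jun of 1454 CPM 4.19 times, while its Atf3 of 56 CPM was 1.19 times. In liver-content its Fos of 67.8 CPM was 3.21 times the next library, its Jun of 297 CPM 3.56 times and its Atf3 of 132 CPM 3.23 times.

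**Figure D3:**
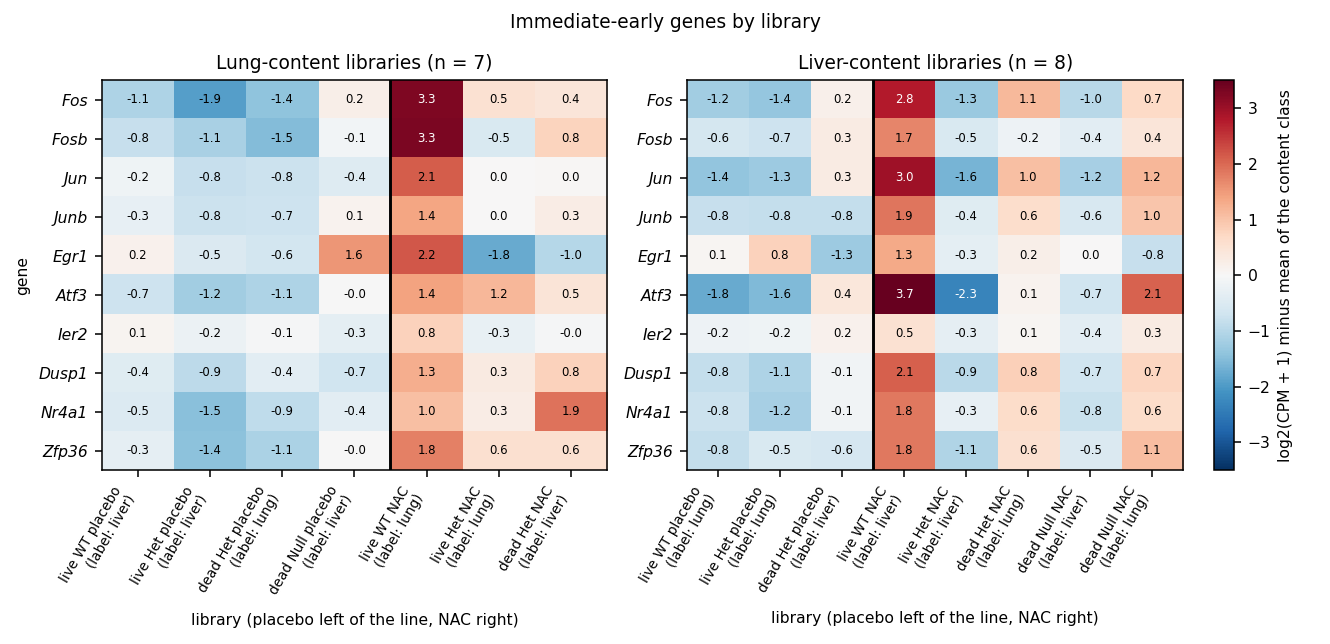
Log2(CPM + 1) of each gene minus its mean over the content class, 1 column per library with the label's tissue in brackets, placebo left of the line and NAC right. The live WT NAC columns are the darkest in both classes, with Fos at 3.3 in lung-content and Atf3 at 3.7 in liver-content. Egr1 is also highest there, but departs from most other genes in other columns, such as live Het NAC (-1.8) and dead Null placebo (1.6) of lung-content.

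In the liver-content libraries NAC and placebo could not be separated for any of the 10 genes. None passed, where 4 of 12963 genes (0.0309%) did. An unadjusted p under 0.05 was reached by 3 (Junb, Nr4a1 and Dusp1), beside 1539 of the 12963 genes. All 10 log2FC were above 0, where 50.5% of all genes were, and Fosb was tested mainly through its live WT NAC value. The median of the 10 was 1.43 beside 0.0038 for all genes, and DESeq2 called 2 of the 10 and 234 genes. Fos had 67.8 CPM in the live WT NAC library and 3.34 in its partner, 3.10 and 2.91 in live Het, and 21.1 and 10.3 in dead Het. The live WT pair was far apart and the live Het pair close, so that the paired differences of log2(CPM + 1) averaged 1.68 ± 2.12 (SD, n = 3 pairs) and the log2FC of 1.85 had an SE of 0.79 (adjusted p = 0.428). Atf3 was the most uneven, at 132 against 1.93 CPM in live WT, 1.01 against 2.40 in live Het and 9.80 against 12.2 in dead Het. Its log2FC was 1.31 (SE 1.47, adjusted p = 0.751), and -0.71 without the live WT pair. Jun had 297 against 13.5, 11.3 against 14.7 and 77.4 against 45.4 CPM, and its log2FC was 1.48 (SE 0.93, adjusted p = 0.555).

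Junb and Nr4a1 had the smallest unadjusted p of the 10 in liver-content (0.00779 and 0.00704). Junb had 143 against 21.3, 28.2 against 20.7 and 59.2 against 20.7 CPM, higher with NAC in all 3 pairs (log2FC 1.59, SE 0.43, adjusted p = 0.286). Nr4a1 had 22 against 2.82, 4.25 against 1.90 and 9.11 against 4.90 CPM, also higher in all 3 (log2FC 1.70, SE 0.45, adjusted p = 0.279). With Fos and Dusp1, which had 168 against 21.1, 19.6 against 17.7 and 69.6 against 35.1 CPM, they were the 4 genes of 10 that were higher in every pair, where 18.8% of all genes were. In lung-content 8 of 10 were, where 15.7% of all genes were. After TMM scaling the counts were 4 of 10 in liver-content (18% of all genes) and 9 of 10, Ier2 now included, in lung-content (29.9%). Zfp36 (log2FC 1.13), Fosb (1.71), Egr1 (0.60) and Ier2 (0.17) were higher in 2, 2, 2 and 1 of the 3 liver-content pairs after TMM scaling. Fosb entered this test mainly through the live WT NAC library, with 4.71 CPM there and 0.063 to 1.35 CPM in the other 7 libraries.

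The liver-content libraries also differed in muscle RNA. The summed cardiac and skeletal muscle markers (Myh6, Myh7, Myl7, Actc1, Tnnt2, Ckm, Acta1, Myh3) were at 427 CPM in the live WT NAC library, 406 in the dead Null NAC library labelled lung, 197 in dead Het NAC and 69.6 in dead Het placebo, and at 6.42 to 24.7 in the other 4. These 4 libraries were also the 4 highest for 7 of the 10 genes (Fos, Fosb, Jun, Atf3, Ier2, Dusp1 and Nr4a1), where they were for 9.41% of 12993 genes, a count made after the values were seen. Fosb averaged 0.535 CPM outside the live WT NAC library and reached the filter only through it, so its place was set in part by the filter. Jun, for example, was at 297, 83.4, 77.4 and 45.4 CPM in them and at 11.3 to 15.8 CPM in the other 4. The live WT NAC library also had the highest summed erythroid (56276 CPM), neutrophil (3853), macrophage (627) and endothelial (324) markers of the class and the lowest lymphocyte markers (29.8). The part of these cells in the values of the 10 genes was not tested. In lung-content the same muscle markers were highest in the live WT NAC library, at 592 CPM. They were at 579 CPM in the dead Het placebo library and lowest in the live Het NAC library, at 157 CPM.

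Dead and live pups did not differ detectably in either class when all pup groups were used. The dead liver-content side held both dead Null NAC libraries, which share pup group and treatment but were fitted as separate replicates. Jun was at 83.4 CPM in the dead Null NAC library labelled lung and at 15.8 CPM in that labelled liver. With treatment as a covariate, 0 of 13990 genes (percent called 0) passed in lung-content and 0 of 12993 (percent called 0) in liver-content, with 507 and 702 genes at an unadjusted p under 0.05, and DESeq2 called 19 and 45 genes and none of the 10. In lung-content the log2FC of dead minus live ran from -0.51 (Fosb) to 0.79 (Nr4a1), with a median of 0.07 beside 0.00037 for all genes. Nr4a1 had 27.7, 40.4 and 200 CPM in the dead and 18.2, 37.2, 63.4 and 110 CPM in the live libraries. The groups overlapped, and Nr4a1 was the only one of the 10 with an unadjusted p under 0.05 (0.0103, SE 0.24). In liver-content 9 of 10 were below 0, with a median of -0.25, where 50.8% of all genes were above 0. Egr1 was lowest at -1.19 (SE 0.43, unadjusted p = 0.0235, adjusted p = 0.780). Egr1 had 20.6, 28.8, 52.0 and 58.6 CPM in the dead and 40.3, 53.3, 90.2 and 129 CPM in the live libraries, which also overlapped.

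The direction in liver-content depended on the libraries fitted. Without the live WT NAC library alone, 8 of the 9 genes still tested were above 0, with Fos at 2.03, Jun at 2.16 and Atf3 at 3.41 (adjusted p = 0.605 for each), 4 had an unadjusted p under 0.05 and 0 genes of the table passed. The shares of all genes above 0 and under that p are not given for this fit, so these counts have no background. The library left out is also the one in which the genes were highest. Among heterozygous pups alone, which leaves out the live WT and the dead Null libraries, with a NAC and a placebo library on each side, 6 of the 10 genes were higher in dead pups and 0 lower, where 7.62% of 12963 genes were higher and 7.19% lower. Fos had 10.3 and 21.1 CPM in the dead and 2.91 and 3.10 in the live libraries, Jun 45.4 and 77.4 against 11.3 and 14.7, and Atf3 9.80 and 12.2 against 1.01 and 2.40. Their log2FC were 2.36, 2.25 and 2.80 (adjusted p = 4.23e-10, 2.33e-12 and 2.80e-11). Dusp1 (1.47), Nr4a1 (1.27) and Zfp36 (0.85) passed as well, while Egr1 was at -0.73 (adjusted p = 0.0872). Fosb did not reach the filter in these libraries. In the fit of all 8 liver-content libraries 0 genes passed. The p-values among heterozygous pups come from so few pools that they rest mainly on a spread estimated across genes. The muscle markers above moved with this split, at 69.6 and 197 CPM in the dead Het and 7.01 and 24.7 CPM in the live Het libraries, and their part was not tested. In lung-content the same restriction left 0 of 10 genes and 7 of 13969 in all (0.0215% higher and 0.0286% lower), with Fos at -0.0029 and Nr4a1 at 0.95 (adjusted p = 0.525). The difference of the dead minus live effect between the 2 classes passed for 0 of 14175 genes (percent called 0), with 546 and none of the 10 at an unadjusted p under 0.05, and in DESeq2 for 5 genes, none of the 10.

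**Figure D4:**
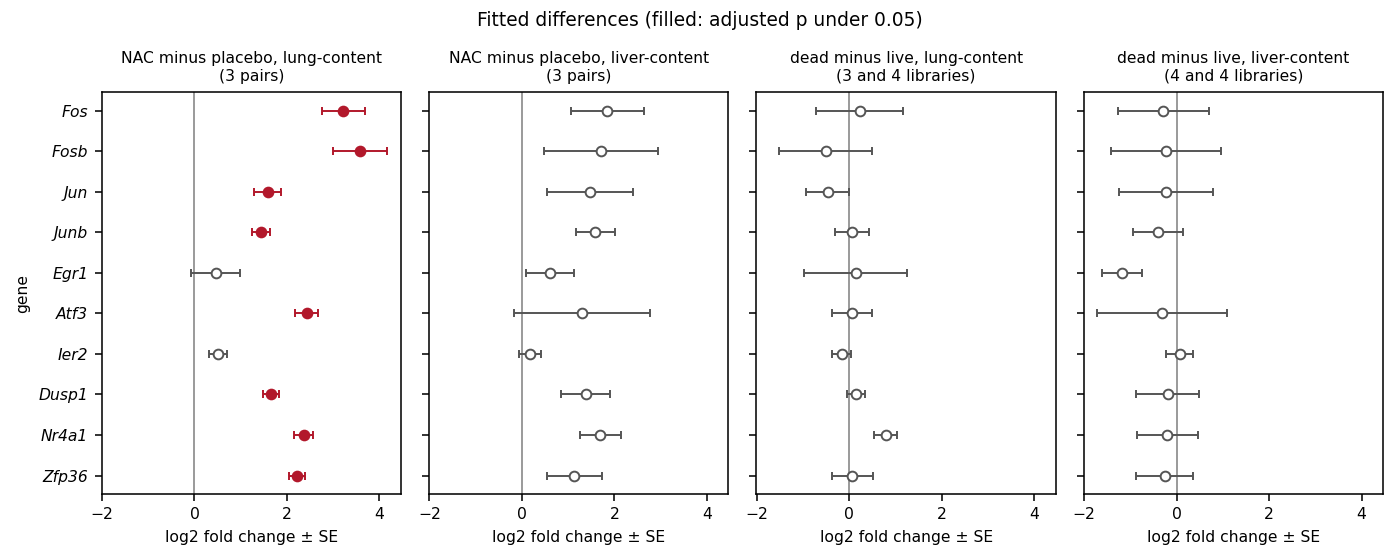
Fitted log2 fold change ± SE of each gene for NAC minus placebo and dead minus live, in lung-content and liver-content libraries, filled where the adjusted p was under 0.05. All 8 filled points are in the lung-content NAC panel, and the bars of Atf3, Fosb, Jun and Fos are wide in liver-content.

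Between lung-content and liver-content libraries, with outcome and treatment as covariates, 5 of the 10 genes were higher in lung-content and 0 lower. Most lung-content libraries share a pup group and treatment with a liver-content library. Neither this fit nor that of the dead minus live difference between classes used that pairing. Of all 14175 genes 75.8% passed (36.2% higher and 39.7% lower), so the share of the 10 that passed was not above the background. Nr4a1 (log2FC 2.83, SE 0.41, adjusted p = 1.12e-05), Fos (2.80, SE 0.69), Fosb (2.55, SE 0.80), Jun (2.31, SE 0.62) and Dusp1 (1.90, SE 0.39) passed. Junb (0.70), Zfp36 (0.53), Ier2 (0.40), Atf3 (-0.02) and Egr1 (-0.36) did not. The median of the 10 was 1.30 beside -0.07 for all genes. Under library size alone 8 passed, the median of all genes was 0.56, the split of all calls became 7481 higher and 3244 lower, and Atf3 (0.62) and Egr1 (0.27) turned to above 0. Beside this, 10 of 10 lung epithelium, 7 of 8 endothelial and 7 of 8 fibroblast marker rows were higher in lung-content, and all 10 hepatocyte, 10 erythroid, 8 neutrophil and 8 macrophage rows were lower. The part of cell makeup in these levels was not tested.

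Per length of exon sequence, Jun had the highest median of the 10 in lung-content libraries, at 95 CPM per kb (range 59.9 to 456 over 7 libraries). Dusp1 (52.6) and Ier2 (52.0) followed, then Zfp36 (41.6), Fos (38.7) and Junb (37.8), with Nr4a1 (11.5), Atf3 (9.36) and Egr1 (6.82) lower and Fosb last at 0.443 CPM per kb. The ranges of neighbours in this order overlapped, from Jun down to Egr1. Fosb lay between 0.146 and 8.39 CPM per kb, and its range overlapped that of Egr1 (2.71 to 45.0) through the live WT NAC library. In liver-content Ier2 was first at 25.9 CPM per kb (range 20.4 to 39.1 over 8 libraries), ahead of Zfp36 (14.7), Egr1 (11.7), Junb (11.7), Jun (9.61) and Dusp1 (8.81). Atf3 (3.48), Fos (3.06), Nr4a1 (1.30) and Fosb (0.0712) were the lowest there, and the ranges of neighbours again overlapped throughout. Ier2 also varied least among the 10, by 2.22 times between the lowest and the highest lung-content library and 1.92 times in liver-content. Fos varied by 39.0 and 23.3 times, and Atf3 by 6.83 and 131 times.

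When NAC was compared with placebo by the tissue on the label, as the study's design has it, each comparison had 1 library on each side, no replicate check and libraries of different content. In live WT pups, lung label, 10 of 10 genes had a log2FC of at least 1 and 0 of at most -1 (27.5% and 28.5% of 14020 genes did), and for the liver label 8 and 0 of 10 did (24.4% and 25.6%), the median of the 10 being 4.11 and 2.03. In live Het pups 8 of 10 were at least 1 and 1 at most -1 for the lung label (28.4% and 31.9% of genes), with Fos at 5.0 and Egr1 at -3.17. For the liver label 1 of 9 tested was at least 1 and 5 were at most -1 (25.1% and 25.3%), with Egr1 at 1.07 and Jun at -3.40. For dead Het pups 2 of 9 were past the fold upward and 0 downward by the lung label (25.3% and 25.9% of genes), and 7 and 0 of 10 by the liver label (26.1% and 25.8%). For dead Null pups 3 of 9 were past it upward and 0 downward by the lung label (22.1% and 24.9%), and 0 of 10 upward and 8 downward by the liver label (29.1% and 26.7%), with Fos at -4.01. The sign of these values followed the content in 5 of the comparisons: where the NAC library was lung-content and the placebo library liver-content, the medians were 4.11 (live WT, lung label), 3.85 (live Het, lung label) and 1.90 (dead Het, liver label), and the reverse gave -1.43 in live Het and -1.81 in dead Null, liver label. It did not in live WT, liver label, where the NAC library was liver-content and the median was 2.03, nor in dead Het, lung label, at 0.24. In dead Null, lung label, the placebo library was the mixed one and the median was 0.84.

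Within content classes the 10 genes varied together, except Egr1. Over the 15 libraries, with log2(CPM + 1) centred on the class mean, each gene's correlation with the mean of the other 9 was 0.82 (Ier2) to 0.97 (Fos), and 0.35 for Egr1. Without the live WT NAC libraries the values of the 9 were 0.52 (Ier2) to 0.93 (Zfp36) and that of Egr1 was -0.33. These are descriptions over libraries that share pups and treatment, with no test. The genes outside all lists most like the mean of the 10, of 9667 with a mean of at least 10 CPM, were Lamb1 (Pearson r = 0.91 over 15 libraries), Eln (0.91), Lox (0.89), Gsn (0.86) and Sgcb (0.85). Lamb1 and Eln encode the extracellular matrix proteins laminin beta and elastin, Lox crosslinks elastin and collagen, Gsn severs actin filaments and Sgcb is a sarcoglycan of muscle membranes. In lung-content Eln was at 7038 CPM in the live WT NAC library against 3560 in its placebo partner, at 3733 against 2597 in live Het and at 4874 against 2982 in dead Het.

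Reads of some of the genes may not be theirs alone. Exons of Jun, Junb, Dusp1 and Zfp36 overlap those of a gene on the other strand in the GENCODE annotation (Junos, Prdx2, Ergic1 and Gm44710). The kit marks strand, but whether the counting used it is not given in the sources used here, so reads from the overlaps cannot be told apart.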

How the data were processed

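RNA was pooled by pup group, treatment and tissue, and libraries were made with a stranded mRNA kit. The authors trimmed adapters, aligned the reads to the Ensembl mouse genome GRCm38 (mm10 per the labels) with the Omicsoft Sequence Aligner and deposited estimated counts per gene symbol, not normalized. Submitters' notes name R 4.0.3 and edgeR 3.30.3. Between 6.5 and 8.24% of values per library were not whole, so all were rounded, although the tests had been planned for whole counts. CPM is a rounded count per 1000000 counts of its library, and at most 3 counts is the floor.

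The members and gene lists were chosen with earlier results of these data known. Named genes are the 10 members, at most 3 genes per other list and direction with the smallest adjusted p, and the 5 genes most like the members. Comparisons used edgeR 4.0.16 (R 4.3.3) with TMM factors, genes averaging 1 CPM or more and the quasi-likelihood test. Comparisons by label used the fold change alone. Libraries are pools, so p-values measure only the spread between pools. The steps were tested on simulated data, and 200 of 200 genes changed 8-fold were recovered in each of the 5 comparisons simulated, with 3 to 10 false calls. The simulated spread was a fixed coefficient of variation of 0.2 without pup group differences, and the changed genes averaged at least 10 CPM. Spread in the data was larger for some genes (SE 1.47 for Atf3 between NAC and placebo in liver-content). The simulation therefore does not show that such differences would be found there. Alternatives were other scaling, filters, covariates, subsets and DESeq2 1.42.0. Positions come from GENCODE vM21.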

Additional observations from a re-analysis of the deposited data

Results flagged for a closer look

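In groups of 4 libraries of 1 outcome and content class, a library was picked out when its gap to the nearest other, on the log2(CPM + 1) scale, exceeded Dixon's 95% critical share of the group's range. Of 30 such groups 7 held such a library, and in each the library was live WT NAC. The critical value alone would pick out about 1 in 20 independent groups. In live liver-content libraries the ratio was 0.964 for Fos (67.8 CPM), 0.923 for Jun (297 CPM) and 0.925 for Dusp1 (168 CPM). It was 0.927 for Fosb (4.71 CPM), 0.875 for Atf3 (132 CPM) and 0.843 for Junb (143 CPM). For Fosb the other live liver-content libraries were all at the floor of at most 3 counts. In live lung-content libraries Fosb had a ratio of 0.866 (52.4 CPM). The 10 genes vary together, so these groups are not independent and the 1 in 20 does not apply to their count. The screen was run on the 10 genes alone, so the share of all genes picked out is not known.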

How the results depend on the processing

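The NAC and placebo difference of the set in lung-content libraries kept 8 called genes under other scaling, DESeq2 and the fit with no block, and 8 to 9 as each pup group was left out, while the genes called over the whole table ran from 1059 to 4202. Fitting all 7 libraries with outcome as a covariate, chosen after seeing the data, gave 4 of the 10 and 1866 genes. In liver-content, DESeq2 called 2 of the 10 and 234 genes, the fit with no block 0 genes, the fit of all libraries 0 genes, and leaving out a pup group 0 to 145 genes. For dead minus live, genes called were 19 (lung-content) and 45 (liver-content) in DESeq2, 1 and 1 with no filter, 7 and 1920 in heterozygous pups alone, where 6 of the 10 passed in liver-content, and 0 and 0 to 11 as each library was left out. The interaction gave 5 genes in DESeq2 and 1 in heterozygous pups. Between lung-content and liver-content, 8 of the 10 passed with library size alone. By label, with library size alone, 4 of the 10 were past the fold for dead Het lung and 5 for live WT liver. The causes of these shifts were not tested.

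Signs changed mainly where the gene had not passed. In heterozygous pups alone, dead minus live was -0.0029 for Fos, 0.45 for Fosb, -0.055 for Junb, -0.56 for Atf3 and -0.034 for Zfp36 in lung-content. In liver-content it was 2.36 for Fos, 2.25 for Jun, 0.60 for Junb, 2.80 for Atf3, 1.47 for Dusp1, 1.27 for Nr4a1 and 0.85 for Zfp36. The interaction there was -2.37 for Fos, -0.60 for Junb, -3.43 for Atf3, -1.08 for Dusp1, -0.29 for Nr4a1 and -0.69 for Zfp36. With no covariate, dead minus live in lung-content was -1.64 for Fos, -0.37 for Junb, -0.18 for Egr1, -0.75 for Atf3, -0.27 for Dusp1 and -0.65 for Zfp36, and the interaction -1.01 for Fos, -0.14 for Junb, -0.033 for Dusp1 and -0.55 for Zfp36. With the labelled tissue as covariate, dead minus live was 0.17 for Fosb in lung-content, and 0.077 for Fos, 0.21 for Fosb, 0.11 for Jun, 0.23 for Atf3, 0.072 for Dusp1 and 0.074 for Nr4a1 in liver-content. With library size alone it was -0.067 for Junb, -0.098 for Egr1, -0.020 for Atf3 and -0.088 for Zfp36 in lung-content, the interaction of Fos was -0.073, and lung minus liver was 0.27 for Egr1 and 0.62 for Atf3. Adding the mixed library gave -0.027 for Junb, -0.025 for Egr1, -0.0093 for Atf3 and -0.049 for Zfp36 in lung-content. Fosb in liver-content was 0.053 in DESeq2, and lung minus liver of Atf3 was 0.045 in live libraries and 0.053 with relative log expression factors.

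Leaving out a library or pup group in turn, dead minus live in lung-content ran from -0.90 to 1.41 for Fos, -1.55 to 1.03 for Fosb, -0.77 to 0.12 for Jun, -0.40 to 0.54 for Junb, -1.29 to 1.30 for Egr1, -0.57 to 0.81 for Atf3, -0.24 to 0.082 for Ier2 and -0.51 to 0.61 for Zfp36. In liver-content it ran from -1.40 to 2.09 for Fos, -1.70 to 0.20 for Fosb, -1.38 to 2.17 for Jun, -0.75 to 0.65 for Junb, -1.78 to 3.46 for Atf3, -0.13 to 0.45 for Ier2, -0.83 to 1.35 for Dusp1, -0.90 to 1.06 for Nr4a1 and -0.65 to 1.00 for Zfp36. Without live WT pups, left out after seeing the data, the interaction was -1.54 for Fos, -0.32 for Junb, -3.43 for Atf3, -0.95 for Dusp1 and -0.46 for Zfp36. For NAC the range was -0.58 to 1.12 for Egr1 in lung-content, and -0.71 to 3.54 for Atf3 and -0.18 to 0.34 for Ier2 in liver-content. No paired analysis by replicate number was possible because each group has a single library. Depth limits Fosb most. It was at or under 3 counts in the live Het placebo (0.063 CPM), live WT placebo (0.128 CPM) and live Het NAC (0.202 CPM) libraries of liver-content.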
